A study of Mus musculus with 2 samples.

Results

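The Schlafen genes are a family of interferon-responsive genes that lie side by side on mouse chromosome 11. Their 6 members Slfn1, Slfn2, Slfn3, Slfn5, Slfn8 and Slfn9 were chosen by name, 6 of 32285 gene rows, and were followed in single thymic cells sorted as invariant natural killer T (iNKT) cells, innate-like T cells with a fixed T cell receptor that recognises lipids on CD1d. The sorted mice were C57BL/6 controls (Ctrl) and T-KO mice, in which floxed Kidins220 alleles (Kidins220 fl/fl) are deleted by a Cre recombinase driven by the proximal Lck promoter, so that the gene is lost from early T cell development on. Thymi of 4 mice were pooled per genotype, and mice were 6 to 46 weeks of age over all experiments, mostly 9 to 15, with no age given for those sorted here. Stage 0 cells were sorted as TCRβ+, CD1d tetramer+, CD24+ and NK1.1-. Stage 3 cells were sorted as TCRβ+, CD1d tetramer+, NK1.1+, CD24- and CD44+. There were 2 parallel sorts, and the methods leave unclear whether each had its own pool of thymi. The 8 populations were marked with hashtag antibodies and pooled into 1 run. The hashtags are numbered 1 to 8 in the labels, whereas the hashtag reads lie on rows 11 to 18 of the matrix, and neither the labels nor the methods say which row carries which population. The levels of Klrb1c (NK1.1) and Cd24a (CD24), given below, match the stage 3 gate in each even row. In each odd row they match the stage 0 gate. Even rows are therefore read as the stage 3 sort and odd rows as the stage 0 sort, with any other cells these sorts held. The genotype and the parallel sort of a row remain unknown. Rows are named by their number, and no comparison of T-KO with Ctrl was made. The matrix counts as 1 sample in which no difference could be tested.

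Schlafen proteins come in a short, an intermediate and a long form, and the long form ends in a helicase-like part. Type I interferon, acting through the IFNAR receptor, the kinases Jak1 and Tyk2 and transcription factors that include Stat2 and Irf9, raises the transcripts of most members, in the same way as it raises antiviral genes such as Ifit3 and Isg15. In T cells the short members are best known from work on quiescence: Slfn1 slows thymocyte growth when it is overexpressed, and T cells that lack functional Slfn2 fail to stay quiescent.

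The 6 genes span 264 kb of chromosome 11 in the GRCm38 build (GENCODE M21). Slfn5 lies at chr11:82951349-82964840 on the plus strand, followed on the minus strand by Slfn9 (chr11:82978390-82991830) and Slfn8 (chr11:83002158-83020810), and then on the plus strand by Slfn2 (chr11:83065112-83070678), Slfn1 (chr11:83116849-83122670) and Slfn3 (chr11:83191330-83215154). The longest annotated proteins are short for Slfn1 (337 residues) and Slfn2 (378 residues), intermediate for Slfn3 (640 residues) and long for Slfn5 (884 residues), Slfn8 and Slfn9 (910 residues each). The 170 bases upstream of the RefSeq start site (GRCm38.p6) are shown for each member because the results below turn on which members follow interferon-induced genes, and capitals mark 2 motifs searched on both strands: the core of the interferon-stimulated response element, GAAANNGAAA, in Slfn5, Slfn8 and Slfn9, and an ETS-type motif, ACTTCCTG, in Slfn1, Slfn2 and Slfn3. The second was chosen after these promoters had been read.
Slfn5, chr11:82951932-82952101, plus strand: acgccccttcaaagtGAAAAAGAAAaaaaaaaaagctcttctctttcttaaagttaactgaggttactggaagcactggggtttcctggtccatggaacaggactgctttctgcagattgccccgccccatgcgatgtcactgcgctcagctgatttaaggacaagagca
Slfn9, chr11:82991831-82992000, minus strand: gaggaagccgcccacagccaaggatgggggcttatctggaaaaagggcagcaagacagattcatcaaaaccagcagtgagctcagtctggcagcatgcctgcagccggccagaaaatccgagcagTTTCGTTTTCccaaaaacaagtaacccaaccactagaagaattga
Slfn8, chr11:83020811-83020980, minus strand: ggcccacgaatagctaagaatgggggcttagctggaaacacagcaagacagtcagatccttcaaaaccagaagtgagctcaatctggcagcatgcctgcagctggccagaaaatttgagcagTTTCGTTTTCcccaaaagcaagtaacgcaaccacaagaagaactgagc
Slfn2, chr11:83064942-83065111, plus strand: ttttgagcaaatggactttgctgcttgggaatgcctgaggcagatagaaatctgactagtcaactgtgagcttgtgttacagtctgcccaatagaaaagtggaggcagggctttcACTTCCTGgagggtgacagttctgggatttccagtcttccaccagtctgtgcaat
Slfn1, chr11:83116650-83116819, plus strand: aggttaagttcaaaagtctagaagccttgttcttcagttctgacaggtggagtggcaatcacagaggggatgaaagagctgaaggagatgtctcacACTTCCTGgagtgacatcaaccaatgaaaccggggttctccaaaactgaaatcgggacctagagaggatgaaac
Slfn3, chr11:83191160-83191329, plus strand: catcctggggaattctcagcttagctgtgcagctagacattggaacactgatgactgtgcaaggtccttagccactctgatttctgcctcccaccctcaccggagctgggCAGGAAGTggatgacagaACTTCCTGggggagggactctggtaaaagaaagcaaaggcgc
The response element core was found in the 300-base window (250 bases before to 50 after the start) of the 3 long members, beginning 155 bases before the start of Slfn5 on the gene's own strand and 48 and 45 bases before the starts of Slfn8 and Slfn9 on the strand opposite to the gene, so that its reverse complement is in capitals there. The RefSeq start of Slfn5 lies 753 bases downstream of the GENCODE gene start given above, so the Slfn5 match lies within the GENCODE gene. That match also runs on into a stretch of A. The core was found in no window of Slfn1, Slfn2 or Slfn3. Of all 32851 RefSeq promoter windows, 3.44% held this core. Of 31 listed interferon targets with a window, 19 held it in any of their windows. The first share counts windows and the second counts genes. The ETS-type motif lay 74 bases before the start of Slfn1, 55 before that of Slfn2, and 42 and 60 before that of Slfn3, and 3.33% of all windows held it. Slfn8 and Slfn9 shared a run of 20 identical bases. These are matches of letters, and binding was not measured.

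The deposited matrix held 16179 barcodes, of which 10007 passed the limits on genes and mitochondrial reads and carried 1 clear hashtag. Odd rows held 583 to 1601 cells with medians of 6500 to 8068 unique molecular identifiers (UMIs, single counted transcripts), and even rows 577 to 2162 cells with medians of 3258 to 3804. Klrb1c, which encodes NK1.1, stood at 4.78 to 6.57 CPM (UMIs per 1000000 gene UMIs of the row) in odd rows and 328 to 444 CPM in even rows, whereas Cd24a stood at 313 to 365 CPM in odd rows and 23.3 to 34.2 CPM in even rows. Odd rows also held cells of other lineages. The summed level of 8 B cell markers was 714 to 1636 CPM in odd and 236 to 281 CPM in even rows. That of 10 myeloid and dendritic markers was 2410 to 7012 against 722 to 867 CPM. Cst3 alone stood at 2086 to 5853 against 245 to 352 CPM. Fcer1g went the other way, at 69.1 to 252 against 392 to 445 CPM. The 6 T cell markers summed to 1618 to 3270 against 4266 to 4864 CPM. Of these, Trbc1 was higher in odd rows, at 153 to 310 against 91.1 to 128 CPM. Trbc2 overlapped, at 504 to 1007 against 408 to 535 CPM. The 95% intervals below are exact Poisson intervals of UMI sums and cover counting error only.

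Slfn1, Slfn2 and Slfn8 were higher in each even row than in every odd row. Slfn1 stood at 92.3, 90.4, 121 and 119 CPM in rows 12, 14, 16 and 18, and at 28.3, 10.8, 9.68 and 8.15 CPM in rows 11, 13, 15 and 17. The medians differed 10.3-fold, and the lowest even row was still well above the highest odd row, row 11. Slfn2 stood at 240, 226, 307 and 298 CPM in the even rows and at 145, 79.3, 80.1 and 57.2 CPM in the odd rows, a 3.37-fold difference of medians. Slfn8, a long member, stood at 66.9, 61.0, 75.3 and 72.8 CPM in the even rows and at 33.2, 19.3, 17.9 and 15 CPM in the odd rows, a 3.76-fold difference. With every cell thinned to 2000 UMIs, which gives each cell equal weight, these differences were 6.93-fold for Slfn1, 2.65-fold for Slfn2 and 2.33-fold for Slfn8. For each of the 3 genes row 11 was the highest odd row. Of 8688 genes with a mean of at least 10 CPM over the 8 rows, 26.1% lay higher in all even than in all odd rows, so that 3 of the 5 members that passed this limit shared a direction common in the data.

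The other members did not follow this order. Slfn3 was the reverse, with 4.21, 6.92, 8.65 and 7.22 CPM in rows 11, 13, 15 and 17 and 1.82, 2.46, 1.31 and 2.68 CPM in rows 12, 14, 16 and 18. Its even rows rested on 3 to 18 UMIs each, and its mean was below 10 CPM, so it was not among the genes counted. Slfn5 overlapped, with 61.7, 30.0, 31.3 and 19.1 CPM in the odd rows and 24.8, 13.8, 20.6 and 17.9 CPM in the even rows. Slfn9 also overlapped, between 14.1 and 19.3 CPM in odd and between 9.99 and 17.1 CPM in even rows. None of the 5 members past the limit therefore lay higher in all odd rows, where 34.6% of genes did. On the thinned cells, however, the odd rows of Slfn5 stood at 32.3 to 67.7 CPM and the even rows at 12.7 to 23.4 CPM, with no overlap.

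**Figure D1:**
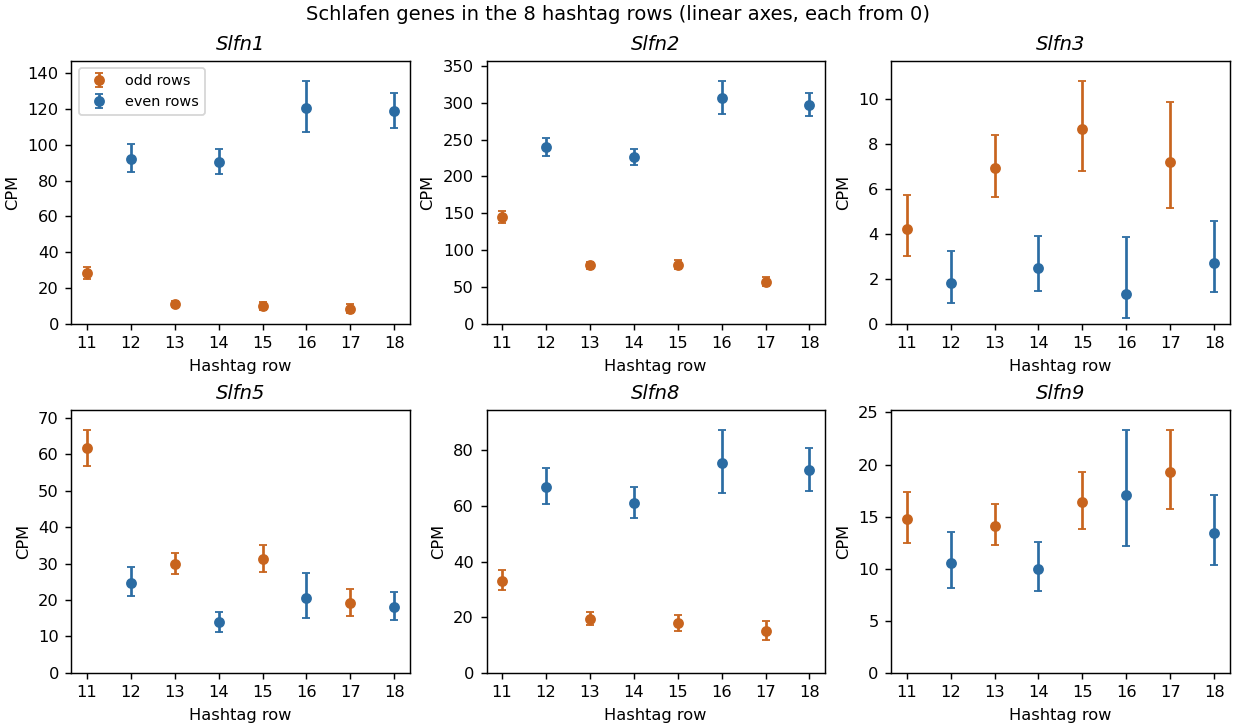
CPM of each member (vertical axes, linear from 0) in hashtag rows 11 to 18 (horizontal axes), with odd rows in orange, even rows in blue and bars for the exact Poisson 95% interval. Slfn1, Slfn2 and Slfn8 lie higher in all 4 even rows, Slfn3 lies higher in all 4 odd rows, and Slfn5 and Slfn9 overlap.

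The difference was also seen as a share of cells. Slfn1 was detected in 24.4% to 34.3% of cells in the even rows and in 5.66% to 10.8% in the odd rows, although the odd rows were deeper. Thinned to 2000 UMIs (4033 odd-row and 5206 even-row cells, with 216 and 552 shallower cells left out), the shares were 15.5% to 21.9% against 2.51% to 4.82%. The odd-row cells with Rag1, described below, gave the lowest reading, 8 Slfn1 UMIs in 7 of 418 cells (1.67%) at a median of 13562 UMIs. Among the even rows Slfn1 and Slfn2 were each highest in rows 16 and 18, and the intervals of these rows, 107 to 136 and 109 to 129 CPM for Slfn1, did not reach those of rows 12 and 14, 84.8 to 100.3 and 83.7 to 97.6 CPM. Slfn8 showed the same order with intervals that overlapped.

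The odd rows were then divided by the first match of at least 2 Cd79a, 5 Cst3, 1 Rag1 or 2 Ikzf2 UMIs, with the remainder as the rest. The classes are named by that gene. Without the gene that cut the class, the other 7 B cell markers summed to 4492 CPM in the 810 cells of the Cd79a class and to at most 303 CPM elsewhere, and the other 9 myeloid and dendritic markers to 2007 CPM in the 972 cells of the Cst3 class and to at most 265 CPM elsewhere. The other 9 double-positive thymocyte markers summed to 1868 CPM in the 418 cells of the Rag1 class and to 1254 CPM in the rest. The 1106 cells of the Ikzf2 class, Ikzf2 encoding Helios, had a sum of 1758 CPM for the other 8 stage 0 iNKT markers. In the rest these 8 markers summed to 1299 CPM. Not all of them went this way: Cd24a stood at 341 CPM in the Ikzf2 class and 332 to 374 CPM in the other classes. Trav11, the iNKT receptor gene segment, was below 1 CPM in all 5 classes but at 39.5 to 56.5 CPM in the even rows. The rest held 943 cells. Its leading genes included Itm2a, a listed stage 0 marker (368 CPM, against a median of 54.5 CPM in the other classes). They also included genes on none of these lists, such as S100a9 (242 against 0.0583 CPM) and Camp (127 against 0 CPM). The rest was thus not shown to be 1 cell type.

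Most of the Schlafen transcripts of the odd rows lay in the Cd79a and Cst3 classes. Slfn1 stood at 22.1 CPM in the Cd79a class and 29.5 CPM in the Cst3 class, against 1.43, 4.32 and 7.34 CPM in the Rag1 class, the Ikzf2 class and the rest. Slfn2 stood at 183 and 161 CPM in the Cd79a and Cst3 classes, against 18.1, 26.7 and 43.7 CPM. Slfn5 stood at 50.7 and 85.1 CPM against 1.43, 9.22 and 9.79 CPM, and its Rag1 class value rested on 8 UMIs. These 3 members had in common that both the Cd79a and the Cst3 class exceeded each of the other 3 classes in every odd row. Slfn8 stood at 48.0 CPM in the Cd79a class and 27.3 CPM in the Cst3 class, against 8.06, 10.97 and 13.7 CPM.

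Slfn9 and Slfn3 did not share this distribution. Slfn9 was lowest in the Cd79a class, with 8.84, 6.18, 7.62 and 9.19 CPM in rows 11, 13, 15 and 17, and highest in the Rag1 class, with 15.4, 21.4, 24.3 and 27.5 CPM. The Cd79a values lay below the Rag1 values in every row. Over the pooled rows it stood at 16.3 CPM in the Cst3 class, 13.1 CPM in the Ikzf2 class and 19 CPM in the rest. Slfn3 had 12.9 CPM (10.1 to 16.2) in the Rag1 class, 8.40 CPM (6.57 to 10.6) in the Ikzf2 class and 3.43 CPM (2.15 to 5.19) in the Cd79a class. Over the pooled rows the Rag1 class thus had the least Slfn1, Slfn2, Slfn5 and Slfn8 and the most Slfn3 and Slfn9, although in row 11 Slfn9 was higher in the Cst3 class (18.4 CPM) and in row 15 in the rest (24.9 CPM).

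Against the median of the other 4 classes, with 2-fold as the limit, 4 of 5 members above 10 CPM over the odd rows were called higher in the Cd79a class (9.26% of 8751 genes) and 1, Slfn9, lower (25.4%). The same 4, Slfn1, Slfn2, Slfn5 and Slfn8, were called higher in the Cst3 class (9.54%) and lower in the Rag1 class (11.9%). Slfn1, Slfn2 and Slfn5 were called lower in the Ikzf2 class (4.39%), and Slfn2 and Slfn5 in the rest (3.82%). Slfn1 and Slfn5 were below 10 CPM in each of the other 3 classes and reached that limit only through the Cd79a and Cst3 classes, so that their calls are a description and add nothing to the counts of Slfn2 and Slfn8. Slfn1 also reached it only with row 11: without that row it was not counted, at ratios of 4.03 in the Cd79a class and 3.80 in the Cst3 class, and Slfn8 in the Cst3 class fell to a ratio of 1.78. Without row 13, Slfn2 in the rest was no longer called (ratio 0.535) and Slfn8 in the Ikzf2 class was (0.408).

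**Figure D2:**
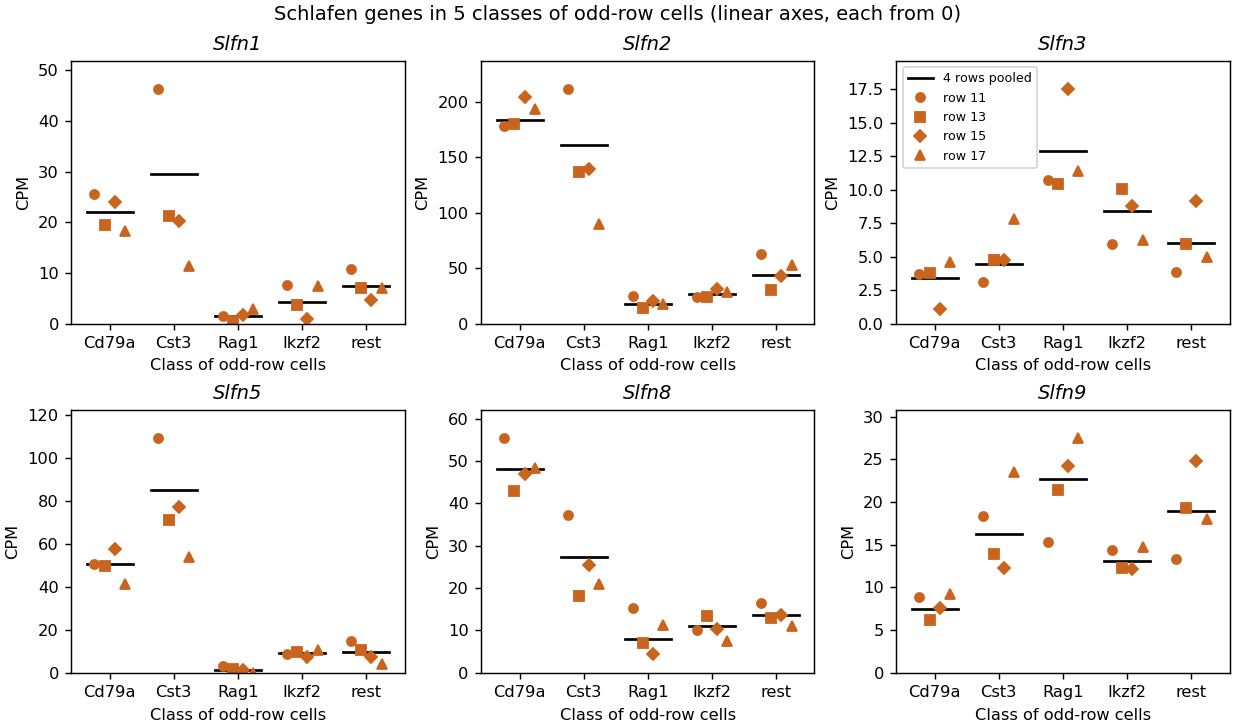
CPM of each member (vertical axes, linear from 0) in the 5 classes of odd-row cells (horizontal axes), with a symbol for each of rows 11, 13, 15 and 17 and a line for the 4 rows pooled. Slfn1, Slfn2, Slfn5 and Slfn8 are high in the Cd79a and Cst3 classes, while Slfn3 and Slfn9 are highest in the Rag1 class.

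In the Ikzf2 class the contrast with the even rows was larger than over whole rows. That class had 0.975 to 7.63 CPM of Slfn1 over the 4 odd rows, against 90.4 to 121 CPM in the even rows. For Slfn2 the values were 23.7 to 31.2 CPM against 226 to 307 CPM. Sort, cell state and depth differ together between these cells, and their parts in the difference cannot be told apart.

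Row 11 stood apart from the other odd rows in its Cst3 class. It held 390 cells of that class, and its Slfn1 level there was 46.3 CPM (40.0 to 53.3), against 21.2, 20.3 and 11.3 CPM in rows 13, 15 and 17. Slfn5 followed with 109 CPM against 71.0, 77.2 and 53.9 CPM, and Slfn2 with 211 against 137, 140 and 89.6 CPM. In the Cd79a class row 11 was not set apart, with 25.6 CPM of Slfn1 against 19.6, 23.96 and 18.4 CPM. The share of Cst3 class cells with at least 2 UMIs of Ifit3 and Isg15 together was also highest in row 11, at 34.1% against 22.9%, 26.0% and 18.8%. Slfn5 and Slfn2 had the same order of rows in this class, and Slfn1 did not between rows 13 and 15. The part of this share in the row 11 values was not tested.

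The even rows were then divided by that same measure, the sum of Ifit3 and Isg15 UMIs in a cell, at 2 or more. Both genes are classical interferon targets, and 317 of 5758 even-row cells (5.51%) reached the limit. All 5 members with enough UMIs were higher in these cells in all 4 rows. Slfn5 changed most. It stood at 191, 82.4, 155 and 114 CPM in the high cells of rows 12, 14, 16 and 18 and at 11.9, 11.1, 10.8 and 9.83 CPM in the other cells, a 12.6-fold ratio over the pooled rows (95% interval 10.3 to 15.5). The high cells were 5.51% of the cells and held 44.9% of all Slfn5 UMIs of the even rows.

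The remaining members changed less. Slfn9 stood at 45.9, 39.4, 19.4 and 50.6 CPM in the high cells of rows 12, 14, 16 and 18 and at 7.83, 8.82, 16.9 and 10.3 CPM in the other cells (4.36-fold, 3.15 to 5.94), and row 16, with 3 UMIs in the high cells, overlapped within its interval. Slfn8 stood at 207, 176, 240 and 194 CPM against 56.1, 56.5, 63.4 and 62.6 CPM (3.42-fold, 2.97 to 3.92). Slfn1 stood at 264, 276, 278 and 325 CPM against 79.0, 83.1, 109 and 101 CPM (3.22-fold, 2.86 to 3.61). In both genes the lowest of the high groups was above the highest of the other groups. Slfn2 stood at 377, 451, 563 and 487 CPM against 229, 217, 288 and 282 CPM, also without overlap, and its ratio of 1.85 (1.69 to 2.02) was the smallest. Slfn3 had 8 and 37 UMIs in the 2 classes and was not counted.

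By the rule of at least 2-fold over the pooled rows and the same direction in all 4, Slfn1, Slfn5, Slfn8 and Slfn9 were called higher, 4 of 5 members counted, where 1.27% of 8126 genes were. Slfn9 reached the limit of 10 CPM only through the high cells (9.77 CPM in the others), so that its call is a description. The 2 classes were of similar depth, with medians of 3584 and 3385 UMIs. The 10 myeloid and dendritic markers summed to 1334 CPM in the high and 775 CPM in the other cells, mainly through Cst3 at 751 against 254 CPM, while the T cell markers stood at 4547 and 4551 CPM. Lyz2 (46.6 against 13.7 CPM) and, at low levels, Xcr1 (6.43 against 0.987 CPM), Clec9a (5.62 against 1.09 CPM), Itgax, Flt3 and Csf1r were also higher in the high cells. Fcer1g differed little (438 against 419 CPM), and Tyrobp (73.1 against 78.0 CPM) and Sirpa (1.61 against 1.77 CPM) were slightly lower. None of these 10 markers was at 0 in either class. Without the even-row cells of the Cd79a or Cst3 class, 5 of the high and 57 of the other cells, the ratios were 12.3 for Slfn5, 4.60 for Slfn9, 3.44 for Slfn8, 3.30 for Slfn1 and 1.87 for Slfn2. That step kept cells with fewer than 5 Cst3 UMIs, and the part of their myeloid and dendritic transcripts was not tested. On cells thinned to 2000 UMIs Slfn2 was called as well (2.17) and Slfn9 was no longer called (8.30).

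**Figure D3:**
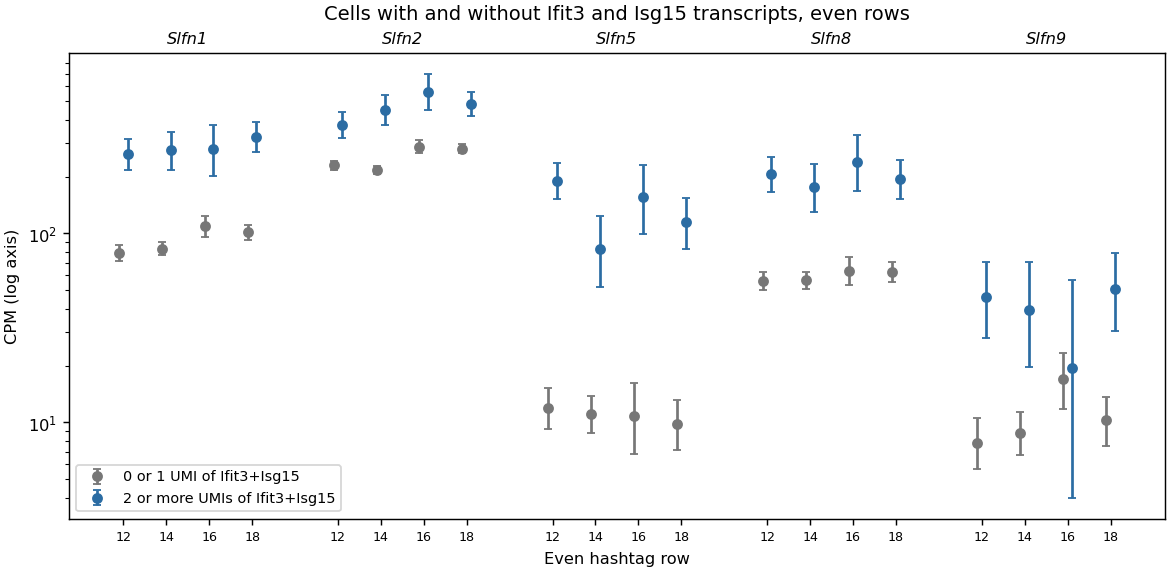
CPM (vertical axis, log scale) of 5 members in the even rows 12, 14, 16 and 18 (horizontal axis), in blue for cells with 2 or more UMIs of Ifit3 and Isg15 together and in grey for the other cells, with exact Poisson 95% intervals. Blue lies above grey in every row for every gene, and the intervals overlap for Slfn9 in row 16 only; Slfn3, at 0 UMIs in 1 group, is not drawn.

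Slfn1, Slfn2 and Slfn8 stood above every odd row also in the even-row cells with 0 Ifit3 and Isg15 UMIs. The 4832 such cells had 84.6 CPM of Slfn1, 238 CPM of Slfn2 and 56.9 CPM of Slfn8. The highest odd rows, with their own high cells kept, had 28.3, 145 and 33.2 CPM. At a median of 3360 UMIs, a count of 0 does not show that a cell lacks these transcripts. Slfn1 then stepped to 122, 183 and 381 CPM at 1 UMI, 2 to 3 UMIs and 4 or more UMIs, and Slfn8 to 70.3, 119 and 274 CPM. Slfn2 went from 238 to 280, 396 and 498 CPM. For these genes each bin was above the one before, although the first 2 bins of Slfn8 overlapped within their intervals (53.4 to 60.6 and 59.9 to 82.0 CPM). Slfn5 differed little between 0 and 1 UMI, at 10.7 (9.19 to 12.4) and 13.4 CPM (9.09 to 18.98), and then stood at 50.8 and 219 CPM. Slfn9 stood at 9.21, 13.8 and 15.2 CPM in the first 3 bins and at 67.3 CPM only in the 160 cells with 4 or more UMIs.

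**Figure D4:**
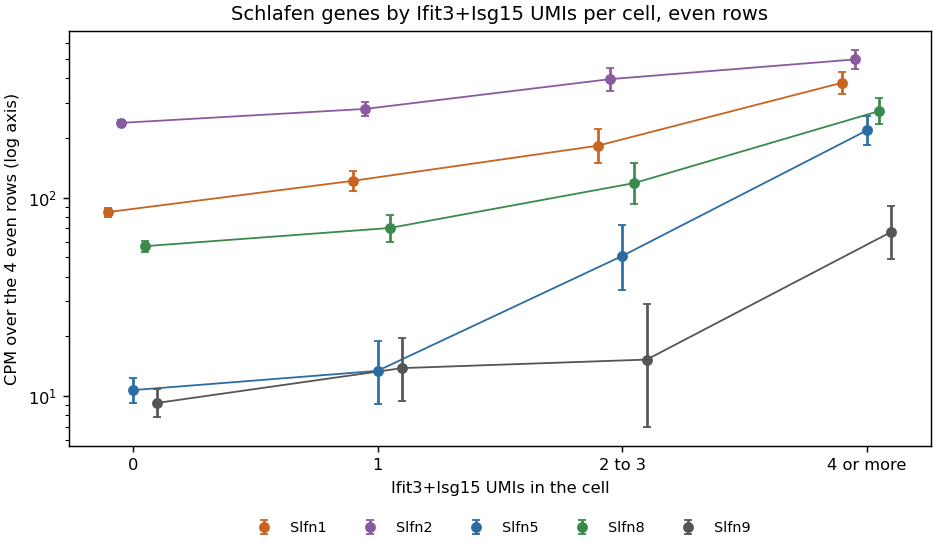
CPM over the 4 even rows (vertical axis, log scale) of 5 members in cells with 0, 1, 2 to 3 and 4 or more UMIs of Ifit3 and Isg15 together (horizontal axis, with small sideways shifts), with exact Poisson 95% intervals. Slfn1 and Slfn2 are above their lowest level from the second bin on, Slfn5 and Slfn8 from the third, and Slfn9 in the last.

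The rest of the interferon pathway was counted by role. Of the receptors and kinases, 0 of 6 counted were called, with Jak1 at 407 against 442 CPM, Ifngr1 at 386 against 452 CPM and Ifnar2 at 119 against 106 CPM. Of the transcription factors reported here, Irf7 (525 against 69.0 CPM), Irf9 (119.7 against 36.8 CPM) and Stat2 (75.5 against 19.6 CPM) were called higher, and Irf1 was not (219 against 152 CPM, 1.44-fold). Of the 38 listed targets beside Ifit3 and Isg15, all 31 that were counted were called higher, with a median ratio of 4.49 where the median over all genes counted was 0.952. The listed targets with the highest levels were Ifi27l2a (1216 against 306 CPM), Ly6a (821 against 319 CPM) and the GTPase gene Ifi47 (512 against 214 CPM). The ratios of Slfn1, Slfn8 and Slfn9 lay below that median of the targets and that of Slfn5 lay above it. The list was drawn up with earlier results of these cells known, and its direction is not independent evidence. Of 15 listed interferons Ifng alone was counted (122 against 160 CPM), and each of the other 14, all type I interferons, had 0 UMIs in the even rows, which allows up to 0.146 CPM where 3 UMIs are taken as the limit of a count of 0.

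The same split was made within the odd-row classes, and there the order of the members differed. In the Cst3 class, 269 of 972 cells reached 2 UMIs of Ifit3 and Isg15, with medians of 10008 UMIs per cell in the high and 10842 in the other cells. Slfn1 stood at 128, 77.8, 69.7 and 25.2 CPM in the high cells of rows 11, 13, 15 and 17 and at 5.38, 4.51, 5.19 and 8.41 CPM in the other cells, 17.8-fold over the pooled rows (12.9 to 25.0). These cells held 86.5% of the Slfn1 UMIs of the class with 26.4% of its gene UMIs. Slfn1 in the remaining Cst3 class cells was thus near its level in the Ikzf2 class, and row 11 was not the highest of the 4 rows there. Slfn5 changed 4.05-fold (3.55 to 4.62), Slfn8 2.96-fold (2.34 to 3.73), Slfn2 2.65-fold (2.41 to 2.92) and Slfn9 2.30-fold (1.69 to 3.12).

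In the Cd79a class the changes were smaller. There 209 of 810 cells reached the limit, with medians of 7128 against 5546 UMIs, and Slfn5 stood at 97.7 against 31.3 CPM (3.12-fold, 2.49 to 3.92). Slfn1 stood at 41.1 against 14.3 CPM (2.87-fold, 2.04 to 4.06), Slfn2 at 278 against 144 CPM (1.92-fold) and Slfn8 at 71.5 against 38.3 CPM (1.87-fold). Slfn9 had 19 and 29 UMIs, with a ratio of 1.59 and an interval of 0.841 to 2.93 that includes 1. The interval of the Slfn1 ratio in the Cst3 class lay wholly above those in the even rows and in the Cd79a class, and that of Slfn5 in the even rows lay wholly above those in both classes of the odd rows.

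**Figure D5:**
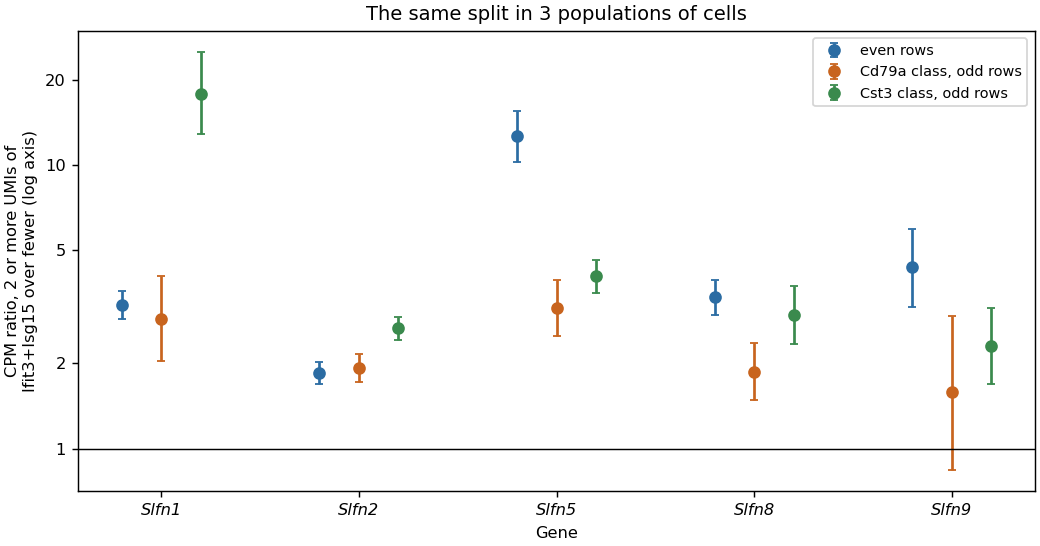
Ratio of CPM in cells with 2 or more UMIs of Ifit3 and Isg15 to CPM in the other cells (vertical axis, log scale) for 5 members (horizontal axis) in the even rows and in the Cd79a and Cst3 classes of the odd rows, each pooled over 4 rows, with exact conditional 95% intervals and a line at 1. The largest ratios are those of Slfn1 in the Cst3 class (17.8) and of Slfn5 in the even rows (12.6).

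Other genes moved with the Ifit3 and Isg15 split of the Cst3 class. The 10 myeloid and dendritic markers summed to 17854 CPM in the high and 12851 CPM in the other cells, but single genes went both ways. Ccr7, which marks migratory and mature dendritic cells, stood at 174 against 58.0 CPM, Sirpa at 108 against 54.4 CPM and Xcr1 at 117 against 103 CPM. Flt3 was level at 154 against 153 CPM. Lyz2 (177 against 276 CPM), Clec9a (53.6 against 68.3 CPM) and Siglech (5.50 against 14.7 CPM) were lower in the high cells. The T cell markers summed to 363 against 920 CPM and the epithelial markers Epcam, Krt8 and Krt5 to 247 against 68.9 CPM. That epithelial sum was nearly all Epcam: over the whole class Epcam stood at 115 CPM, Krt8 at 0.363 and Krt5 at 0.182 CPM. The part of these differences in the Slfn1 ratio was not tested. In the Ikzf2 class only 29 of 1106 cells reached 2 UMIs (2.62%), with 7 Slfn1 UMIs, too few to compare by row.

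Because Slfn1 and Slfn2 are known from quiescence, cells with at least 2 UMIs of the proliferation genes Mki67 and Top2a were set against the others. In the Ikzf2 class of the odd rows, 376 cells were in this cycling class and 730 were not. Slfn2 stood at 10.5, 15.98, 19.9 and 20.1 CPM in the cycling cells of rows 11, 13, 15 and 17 and at 40.7, 34.9, 47.3 and 40.6 CPM in the others, 0.430-fold (0.325 to 0.567) and without overlap. Slfn1 had 7 UMIs in the cycling and 30 in the other cells (0.173-fold, 0.0642 to 0.403), and Slfn5 12 and 67 UMIs (0.133-fold, 0.0655 to 0.248), both too few in the class for the limit of 10 CPM. Slfn9 was the exception, at 16.5 against 8.49 CPM (1.94-fold, 1.27 to 3.04) and higher in all 4 rows. Of the 3 members past the limit only Slfn2 was called lower, where 7.69% of 8625 genes were. Cycling cells were deeper, with medians of 12974 against 4332 UMIs, and with all cells thinned to 2000 UMIs the ratio was 0.237 for Slfn2, 4.41 for Slfn9, 0.638 for Slfn5, and 1.63 for Slfn8, which stood at 0.527 before thinning.

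In the even rows the cycling class held 333 of 5758 cells and the differences were smaller. Slfn2 was 0.806-fold (0.721 to 0.899) and Slfn1 0.673-fold (0.553 to 0.812), lower in all 4 rows. Slfn8 was 0.888-fold with an interval of 0.716 to 1.09, and Slfn9 was again higher in the cycling cells of all 4 rows (1.57-fold, 1.024 to 2.32). Slfn5, with 16 UMIs in the cycling cells, was called lower at 0.496-fold, 1 of 5 members where 0.492% of genes were called. That call was lost without the cells with at least 2 Ifit3 and Isg15 UMIs (0.630) and on thinned cells (0.898). Of 20 genes listed for quiescence, 7 of 19 counted were called lower in the cycling cells of the Ikzf2 class (Klf2, S1pr1, Foxo1, Btg1, Pdcd4, Bach2 and Vsir) and 1 was called higher, with a median ratio of 0.557 where the median over all genes counted was 0.912. Of the 3 listed genes with the highest levels, Btg1, an antiproliferative gene, stood at 99.8 against 407 CPM, whereas the costimulatory receptor gene Cd27 (217 against 375 CPM) and the adaptor gene Fyb (244 against 177 CPM) were not called. In the even rows 0 of 18 counted were called, with a median ratio of 0.815 where that of all genes was 0.993.

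The 2 large subsets of the even rows, 1526 cells with at least 2 UMIs of the chemokine gene Ccl5 and 1444 without these but with Izumo1r, differed by at most 1.26-fold in the members counted. No member was called, where 0.435% of 8041 genes were called higher in the Ccl5 class and 0.311% in the Izumo1r class. Slfn1 stood at 95.1 CPM in the Ccl5 class and 111 CPM in the Izumo1r class (0.854-fold, 0.759 to 0.959), lower in all 4 rows. Slfn2 stood at 260 and 274 CPM (0.951-fold, 0.885 to 1.022), and Slfn8 at 63.3 and 60.1 CPM (1.05-fold, 0.905 to 1.23). Slfn5 and Slfn9 had ratios of 1.26 (0.9497 to 1.68) and 0.935 (0.652 to 1.34).

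Over 28 groups of cells (odd rows by class and even rows by Ifit3 and Isg15 class), the genes whose log2(CPM + 10) followed each member most closely were then listed among genes of at least 50 CPM in 1 class. These correlations share 1 library and the groups' depths and are descriptions without a test. The even-row groups were cut on Ifit3 and Isg15, so genes raised with these are drawn together by the choice of groups. Closeness to interferon-induced genes is therefore partly built in. Slfn1 was closest to Tgtp2, an interferon-inducible GTPase (r = 0.96), Ccrl2, a chemerin-binding receptor (0.96), and Oas3, an oligoadenylate synthetase (0.96). Slfn8 was closest to Oas3 (0.98), Rtp4 and Zbp1 (0.97 each), and Slfn5 to Irf7 (0.96), Trafd1 (0.95) and Oasl2 (0.95). Slfn2 was closest to the antigen presentation genes Tapbp and B2m (0.97 each) and to Sh3bgrl3 (0.96). Slfn1 and Slfn8 were close to each other (0.96), as were Slfn2 and Slfn8 (0.93), whereas Slfn3 ran against Slfn2 (-0.62). Slfn3 and Slfn9 were below 20 CPM and were not given a list.

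Of the other genes of the family, Slfn4, an intermediate member, had 13 UMIs, 10 of them in row 11 and 0 in the even rows. In the Cst3 class 8 of its 10 UMIs lay in 3 cells with at least 2 Ifit3 and Isg15 UMIs. Slfn14 and Slfnl1 had 0 UMIs in all rows, which by the same limit of 3 UMIs allows up to 0.0779 CPM over the odd and 0.146 CPM over the even rows, and Slfn10-ps was not analysed here. Near-identical stretches could cost reads or add reads of a copy without a gene row, such as Slfn10-ps. Of the 60-base words of the annotated transcripts, 10.8% of Slfn8 and 8.40% of Slfn9 were shared with another gene of the family, mostly with Slfn10-ps. The shares were 4.11% of Slfn3, 3.05% of Slfn2, 0.0554% of Slfn1 and 0% of Slfn5. Levels of Slfn8 and Slfn9 are uncertain for this reason, by an amount that shares over whole transcripts do not measure in a 5′ library. Slfn5 overlaps the antisense gene Slfn5os, which had 4 UMIs in the even rows and 16 in the odd rows, 12 of these in the Cst3 class and 9 in row 11.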

How the data were processed

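Sorted thymic cells of 8 populations were profiled in 1 run of 5′ single-cell RNA sequencing with hashtag antibodies. The values are UMI counts per gene or hashtag row and barcode, deposited by the authors as Cell Ranger 6.0.0 made them on the mm10 genome, before the authors' own cell filters in Seurat. The 2 libraries of the series, mRNA and hashtags, share this matrix.

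Cells were kept with at least 1000 genes, at most 5% mitochondrial UMIs, and at least 80% of at least 10 hashtag UMIs on 1 of rows 11 to 18. This removed doublets between rows only. No doublet caller was used, and a limit of 4000 genes per cell was tried. No barcode was duplicated. UMIs were summed by row and class and given as CPM of gene UMIs. With 1 matrix whose rows have no known genotype there were no replicates, and no p-value was computed. Intervals (95%) are exact Poisson for levels, exact binomial for shares and exact conditional binomial for ratios, and cover counting error only. A gene was called between rows where the odd and even ranges did not overlap, and between cell classes where the pooled ratio was at least 2-fold in 1 direction in every row with at least 20 cells in both classes. In the classes of the odd rows the ratio to the median of the other 4 classes was used. Genes below 10 CPM were not counted. The Ifit3 and Isg15 split within odd-row classes and the motif matches are descriptions without calls.

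Named genes were the 6 members, the other Schlafen genes, the 3 genes most like each member, and in each list the 3 genes with the highest level or all genes called. Some listed genes are not reported here by name. The members and lists were chosen with earlier results of these data known. Python 3.11.15 with numpy 2.4.6, scipy 1.17.1, pandas 2.3.3 and matplotlib 3.10.9 was used. Alternative settings are given in the closing section.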

Additional observations from a re-analysis of the deposited data

Results flagged for a closer look

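In 54 sets of 4 hashtag rows (each member over all cells, by class and by split), the gap of the highest or lowest row to its neighbour was compared with the range of the set, a check that chance passes in about 1 in 20 sets. It picked out 2 values. Slfn1 over all cells of row 11 stood at 28.3 CPM, far above the other odd rows. Slfn3 in the Rag1 class of row 15 stood at 17.5 CPM, on 31 UMIs, above the other odd rows at 10.5 to 11.4 CPM. Neither difference was tested.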

How the results depend on the processing

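No paired analysis was possible because the hashtag rows carry no replicate numbers that the labels tie to groups. Between rows, 3 members were called higher in the even rows, and 3 to 4 members were called under all 13 alternatives. The added call was Slfn5, higher in the odd rows, with at most 4000 genes per cell, on thinned cells or without row 17, and Slfn9, higher in the odd rows, without row 16. The odd-row classes gave 18 calls, 13 to 18 with 1 row left out and 17 to 19 under the other alternatives except the lower class limits of 1 Cd79a, 2 Cst3, 1 Rag1 and 1 Ikzf2 UMIs, which gave 11 calls and turned Slfn2 in the rest from lower to higher (ratio 1.41). The Ifit3 and Isg15 split gave 4 calls under all 13 alternatives, with ratios of 5.36 to 19.2 for Slfn5 and 2.12 to 4.21 for Slfn1. The split by Mki67 and Top2a gave 2 calls, and 1 call each on cells thinned to 2000 UMIs and without the cells high in Ifit3 and Isg15, the latter chosen after seeing the data. No call arose between the Ccl5 and Izumo1r classes. The cause of these changes was not tested. Slfn3, Slfn9 and the cycling values of Slfn1 and Slfn5 rest on few UMIs.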
